A study of Mus musculus with 4 samples.

Results

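The translation initiation and elongation factors are the soluble proteins that bring ribosomes to mRNA and move them along it. Members were taken by name from the deposited count table: every gene whose symbol starts with Eif1 to Eif6, Eef1 or Eef2, leaving out the eIF2 alpha kinases (Eif2ak), the eEF1A lysine methyltransferases named Eef1akmt and the Y-linked Eif2s3y. The rule gave 78 of the 21834 genes of the table. Of these, 18 had no count in any library and 58 passed the filter on low counts. The rule reads names only, and it was proposed with earlier results of these data known.

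RNA was sequenced from bone marrow derived monocytes and macrophages of mice after 3 days with RANKL, the cytokine that turns these precursors into bone-resorbing osteoclasts. There were 4 libraries, 2 labelled Nat10 conditional knockout (cKO) and 2 labelled wild type (WT), and both groups went through the same differentiation. The Nat10 protein acetylates cytidine in RNA, and the series asks how its loss bears on osteoclast formation. The labels give neither the Cre driver nor the deleted exons nor the age or sex of the mice, nor whether replicate libraries stem from different mice. The p-values therefore cover only the spread among these 4 libraries, which may be technical. All cells were washed with 100 μg/mL cycloheximide, an inhibitor of elongation, before lysis.

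Total counts ran from 10037338 to 14097638 per library. Nat10 itself stood at 15.9 and 14.3 CPM in libraries labelled cKO and at 16.8 and 18.6 CPM in WT. Its difference of -0.24 on the log2 scale was not called (SE 0.153, edgeR adjusted p = 0.263), so the deletion could not be seen in this level and each direction below rests on the labels. CPM is the usual count per library size, with the size scaled by TMM. Fold changes are on the log2 scale, cKO minus WT as labelled, and SE is their standard error in the edgeR quasi-likelihood fit to 11448 genes. A gene is called higher or lower at an adjusted p under 0.05. All 9 osteoclast markers were present, from 47 counts of Calcr to 44909 of Acp5. The erythroid markers Hbb-bt and Klf1, the T and NK markers Cd3d, Ncr1 and Nkg7 and the mast cell marker Cpa3 were at 0. Other markers of these lists were low but present, with 0 to 9 counts per library of Hba-a1, 0 to 2 of Cd3e and Cd8a, 2 to 15 of Mcpt8 and 11 to 31 of Kit. Of 10 tested stromal and osteoblast markers, 9 were higher and 0 lower in libraries labelled cKO, where the list of 11 summed to 1060.9 and 1020.5 CPM against 292 and 275 CPM in WT. Sp7 was at 0 in both WT libraries. Of 8 markers of dividing cells, 6 were higher and 1 lower. Neutrophil markers summed to 784 and 890 against 464 and 451 CPM. B lineage markers summed to 12.7 and 12.7 against 4.90 and 5.48 CPM. Ebf1 held 8.54 and 8.57 against 2.35 and 2.82 of this, and Cd79a, Cd79b and Pax5 were not called. Mast cell, basophil and megakaryocyte markers summed to 158 and 192 against 62.9 and 69.6 CPM. Pf4 held 148 and 180 against 54.9 and 61.2 of this. Ppbp was higher too, while Kit and Itga2b were not called. Of the osteoclast markers 6 were higher and 2 lower, and of 7 macrophage markers 3 were higher and 1 lower. These values move with the groups compared below, and their part in the results on translation factors was not tested. In such bulk cultures a smaller number of cells of a type and less RNA per cell cannot be told apart.

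Initiation begins when eIF2 with GTP brings the initiator tRNA to the small ribosomal subunit, helped by eIF1, eIF1A, eIF3 and eIF5. The cap-binding complex eIF4F loads this assembly on the mRNA, it scans to the start codon, and eIF5B joins the large subunit. eEF1A then delivers each aminoacyl-tRNA and eEF2 moves the ribosome by a codon. Many elongation factor mRNAs and some initiation factor mRNAs begin with a terminal oligopyrimidine (TOP) tract, a C followed by a run of C and U, through which the kinase mTOR controls their translation. Osteoclasts are large, secretory cells that make proteases and proton pumps in quantity.

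With TMM scaling the translation factors were called about as often as other genes, and other settings moved their share to either side. Of the 58 tested members, 9 rose and 8 fell, 29.3% in all, where 28.8% of all tested genes were called. In each direction the members' share lay near the background, 15.5% higher against 14.4% of all genes and 13.8% lower against 14.4%. These shares are not matched for level, since the median WT level was 98.8 CPM for tested members and 22.6 CPM over all tested genes. The members' median log2 fold change was 0.018, beside 0.0075 over all tested genes. Groups did not overlap for 41 members (70.7%), against 63.6% of all tested genes. The libraries labelled cKO lay above WT for 23 of them and below for 18, beside 32.3% and 31.3% of all tested genes. The members called higher were Eef1a2, Eef2k, Eif4a2, Eef1b2, Eif3f, Eif3h, Eef1g, Eef2 and Eif4a1, and those called lower were Eif6, Eif2s2, Eif5b, Eif5, Eef1e1, Eif3j1, Eif1a and Eif4g2. Of the tested members, 1 (Eef1a2) moved by more than 1 on the log2 scale. With upper-quartile factors in place of TMM, 17 members were higher and 6 lower (39.7% called), where 29.3% of the same 11448 genes were called, 19.6% higher and 9.70% lower. DESeq2 called 6 members higher and 8 lower (24.1%) and 18.3% of those genes. Without WT replicate 1 the counts were 3 higher and 5 lower and without WT replicate 2 they were 1 higher and 5 lower, that is 13.8% and 10.3% of the members against 18.0% and 15.9% of those genes. Without Nat10 cKO replicate 1 they were 13 higher and 11 lower, 41.4% against 30.4%.

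**Figure D1:**
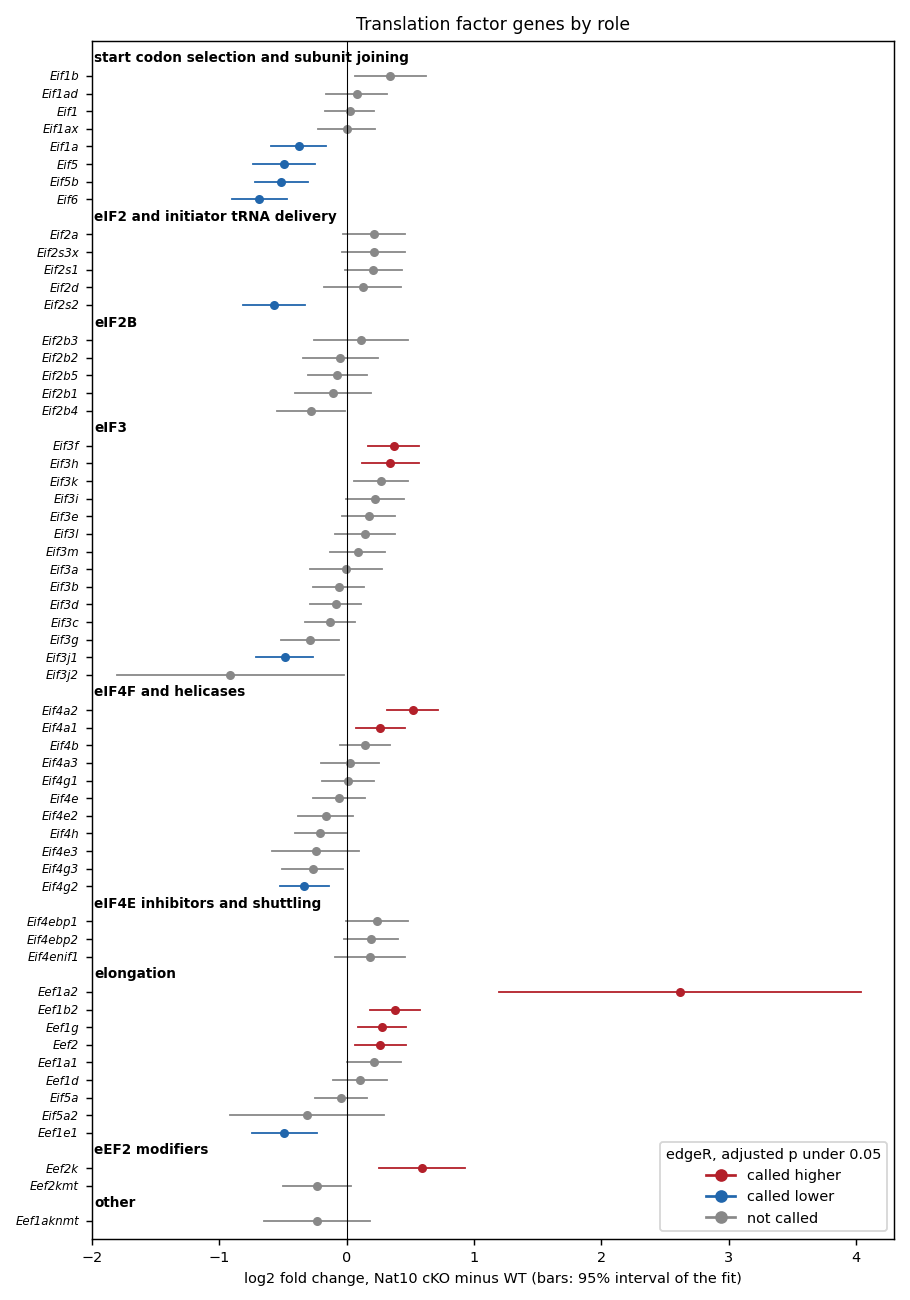
Log2 fold change of each of the 58 tested members (x axis, libraries labelled cKO minus WT) by role and gene (y axis), with bars for the 95% interval of the edgeR fit. The 9 members called higher are red, the 8 called lower blue and the 41 others grey; 4 of the 8 called lower lie in the group for start codon selection and subunit joining, and Eef1a2 lies far from the others at 2.62 with a wide interval.

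The factors spanned a wide range of levels, and a few elongation factors held much of the count. Members together held 1.65% to 1.86% of all counts and the 9 elongation genes 0.761% to 0.981%, of which Eef1a1 alone held 0.417% to 0.555% and Eef2 0.163% to 0.224% of the library. Levels between genes are compared per length, as CPM per kb of merged exons of GENCODE M21, an annotation of GRCm38 that the authors need not have used. Merged exons cover all annotated transcripts of a gene and can be longer than the mRNA present. Orders and ratios between genes therefore hold for this measure only. Eef1a1, the carrier of aminoacyl-tRNA, stood first at 2168 and 2108 CPM per kb in libraries labelled cKO and 1713 and 1967 in WT. Eef2, the translocase, followed at 656 and 617 against 504 and 556 CPM per kb. Eif5a, the hypusine-carrying factor that helps ribosomes through difficult peptide bonds, had 347 and 400 against 379 and 391 CPM per kb, and Eif1, the guardian of start codon choice, 249 and 270 against 255 and 255. Eef1g, a subunit of the nucleotide exchange complex of eEF1A, came next at 207 and 213 against 171 and 176 CPM per kb. Over the 4 libraries the ranges of these 5 genes did not touch, so by this measure their order was the same in each library. With mRNA lengths in place of merged exons the order could differ. Eef1b2, the exchange factor subunit, ranged from 134 to 187 CPM per kb and Eif4g2 from 133 to 174, so this pair could not be ordered. In libraries labelled cKO Eef1b2 was above Eif4g2, and in WT it was below.

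At the other end of the same measure stood the minor paralogs. Eif5a2 had 0.610 to 0.975 CPM per kb, and Eif5a exceeded it by 388 to 656 times in each library. Eef1a1 exceeded Eef1a2 by at least 2866 times in every library, and Eif3j1 exceeded Eif3j2 by 9.66 to 15.4 times. The members without a test were Eif4ebp3, the germ cell form Eif4e1b and Eif4a3l1, with 0 counts, Eif4a3l2 with 3 counts in 1 WT library, and 16 numbered copies of Eif1ad, of which 15 had no count and Eif1ad13 had 3 counts in the same WT library. A count of 0 allows up to 3 counts per library, which covers counting error only.

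**Figure D2:**
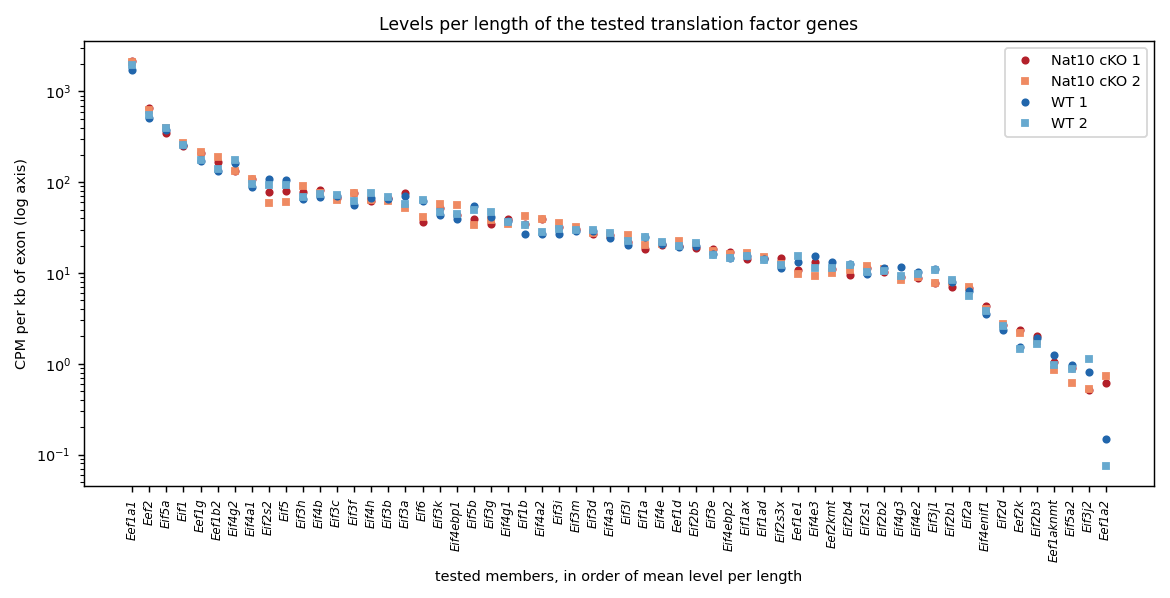
Level per length of the 58 tested members (y axis, CPM per kb of exon, log axis) in each of the 4 libraries, in order of the mean over libraries (x axis). Eef1a1 lies at 1713 CPM per kb or more in each library, whereas Eef1a2 at the right end lies below 1.

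Start codon selection and subunit joining held the most falling members, 4 of its 8 tested genes, while 0 rose in edgeR or DESeq2 (1 was higher in edgeR at an unadjusted p under 0.05). Of all tested genes 14.4% were called lower. The 4 were Eif6, Eif5b, Eif5 and Eif1a, and the others, Eif1, Eif1b, Eif1ax and Eif1ad, were not called. Eif6 (ENSMUSG00000027613, chromosome 2, 155661752 to 155668845 on GRCm39) encodes a factor that binds the large subunit and keeps it from joining the small subunit too early. It stood at 99.5 and 112 CPM in libraries labelled cKO and at 166 and 174 CPM in WT. All values of the former lay below all of the latter. It fell by 0.68 on the log2 scale (SE 0.102, adjusted p = 5.24e-05), the smallest adjusted p of the members. Eif5b (ENSMUSG00000026083, chromosome 1, 38037091 to 38094660) encodes the GTPase that joins the subunits at the start codon. Its levels were 381 and 327 CPM against 529 and 482 CPM, with no overlap. It fell by 0.51 (SE 0.1000, adjusted p = 0.00075). It shares 2794 bases with Rev1, which lies on the other strand and had 113 to 179 counts per library, and no source used here states whether counting was stranded.

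Eif5, the activator of GTP hydrolysis by eIF2, had 544 and 415 CPM in libraries labelled cKO and 718 and 629 CPM in WT. Its groups stayed apart although the libraries within each differed, and it fell by 0.49 (SE 0.115, adjusted p = 0.00342). Without WT replicate 1 its fold change was -0.40 and its call ended (adjusted p = 0.0583). It was at -0.31 without Nat10 cKO replicate 2 and at -0.71 without Nat10 cKO replicate 1, both called. Eif1a had 77.4 and 84.2 CPM against 105 and 105 CPM and fell by 0.38 (SE 0.102, adjusted p = 0.00978). Its X-linked paralog Eif1ax, which encodes the near-identical eIF1A protein that assists scanning, had 75.5 and 87.2 against 81.3 and 81.3 CPM, a log2 fold change of 0.0023 (95% interval -0.22 to 0.23). Reads shared by this pair could be counted under either gene. The call of Eif1a ended without WT replicate 1 (-0.38, adjusted p = 0.0891), without WT replicate 2 (-0.38, adjusted p = 0.106) and with upper-quartile factors (-0.28, adjusted p = 0.0528). Eif1b, a paralog of Eif1, had 39.2 and 47.6 CPM against 30.4 and 37.9 CPM, and its log2 fold change of 0.34 was not called (adjusted p = 0.0604). It was called higher with upper-quartile factors (0.44), with library size only (0.41), without the filter (0.34) and without Nat10 cKO replicate 1 (0.46). With upper-quartile factors 1 gene of this role was higher and 3 lower, and without WT replicate 1 or 2 the lower genes numbered 2 and 3. The summed level of this role was 1780 and 1680 CPM in libraries labelled cKO and 2204 and 2082 CPM in WT.

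Within eIF2 the subunits differed. Eif2s2 (ENSMUSG00000074656, chromosome 2, 154713330 to 154734855), which encodes the beta subunit, had 521 and 397 CPM in libraries labelled cKO and 731 and 635 CPM in WT. It fell by 0.57 (SE 0.116, adjusted p = 0.00104), the 1 call among 5 tested genes of initiator tRNA delivery. Of all tested genes 28.8% were called. Eif2s1, the alpha subunit that stress kinases phosphorylate, had 56.2 and 58.4 against 48.1 and 50.9 CPM, and Eif2s3x, the gamma subunit that holds GTP and tRNA, 56.3 and 47.6 against 43.0 and 46.4 CPM. Both groups of libraries were apart for each, but the fold changes, 0.21 for both, were not called (adjusted p = 0.157 and 0.193). Eif2s1 was called higher with upper-quartile factors (0.31) and Eif2s3x without Nat10 cKO replicate 2 (0.33). Per length, Eif2s2 stood at 58.8 to 108 CPM per kb, while the gene means of Eif2s1 and Eif2s3x over the libraries were 10.8 and 12.7. The alternative tRNA carriers Eif2a (0.21) and Eif2d (0.13) were not called. Of the 5 subunits of eIF2B, the exchange factor that recharges eIF2 with GTP, 0 were called in either direction by edgeR or DESeq2 (median -0.07, and 0.027 with upper-quartile factors; 1 was lower in edgeR at an unadjusted p under 0.05), with log2 fold changes from -0.28 for Eif2b4 to 0.11 for Eif2b3. Over all tested genes edgeR called 28.8% and DESeq2 18.3%, so among 5 genes a count of 0 does not set eIF2B apart. Eif2b4, the subunit of smallest p there, had 24.4 and 28.3 against 32.6 and 31.6 CPM (SE 0.128, adjusted p = 0.109), and it was called lower without Nat10 cKO replicate 2 (-0.40).

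eIF3 is the large scaffold that holds the initiation complex together. Of its 14 tested genes 2 rose and 1 fell (median 0.040), a share of 21.4% beside 28.8% of all tested genes. With upper-quartile factors 5 were higher and 1 lower (median 0.136), beside 19.6% and 9.70% of all tested genes. Eif3f and Eif3h encode the pair of subunits with an MPN domain. Eif3f had 218 and 221 CPM in libraries labelled cKO and 162 and 178 CPM in WT, and it rose by 0.37 (SE 0.0966, adjusted p = 0.00752). Eif3h had 126 and 148 against 105 and 111 CPM and rose by 0.34 (SE 0.106, adjusted p = 0.0199). Groups did not overlap for either, and both calls ended without WT replicate 1 (0.30 for each, adjusted p = 0.211 and 0.210) and without WT replicate 2 (0.43 and 0.37, adjusted p = 0.0651 and 0.137), while that of Eif3h also ended without Nat10 cKO replicate 2 (0.22, adjusted p = 0.127). Eif3k, a peripheral subunit, lay at the threshold with 140 and 154 against 118 and 126 CPM, a log2 fold change of 0.27 and an adjusted p of 0.0501. It was called higher with upper-quartile factors (0.37), with library size only (0.34) and without Nat10 cKO replicate 1 (0.33). Eif3g, an RNA-binding subunit, lay near it on the other side with 69.1 and 75.6 against 82.2 and 94.2 CPM (-0.29, adjusted p = 0.0544), and it was called lower without Nat10 cKO replicate 2 (-0.36).

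Eif3j1 (ENSMUSG00000027236, chromosome 2, 121859027 to 121887079) encodes the loosely bound subunit that sits near the decoding site. Its levels were 45.6 and 45.1 CPM against 64.0 and 63.0 CPM. The libraries of each group lay close together, and the gene fell by 0.49 (SE 0.106, adjusted p = 0.00199). Eif3j2, its copy on chromosome 18, had 14 and 18 counts against 19 and 34 and was not called (-0.91, SE 0.425, adjusted p = 0.118). The pair is close enough in sequence that the counting could split its reads. Eif3j1 also overlaps Spg11 (149 to 216 counts per library) over 3079 bases on the other strand. The core subunits Eif3a, Eif3b, Eif3c and Eif3d had log2 fold changes from -0.13 to -0.0062 and were not called. Eif3a differed between replicates of both groups, with 662 and 450 CPM in libraries labelled cKO and 610 and 507 CPM in WT. Its log2 fold change was -0.32 without Nat10 cKO replicate 1 (adjusted p = 0.00218) and 0.24 without Nat10 cKO replicate 2 (adjusted p = 0.0444), so its direction turned on which of these libraries was kept.

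In eIF4F and its helicases, 2 of 11 tested genes rose and 1 fell, 27.3% beside 28.8% of all tested genes (median -0.06, and 0.040 with upper-quartile factors, 0.0091 with library size only and 0.0020 without Nat10 cKO replicate 2). Eif4a2 (ENSMUSG00000022884, chromosome 16, 22926194 to 22932886) encodes a paralog of the RNA helicase that unwinds the 5′ end of mRNAs. It had 209 and 212 CPM in libraries labelled cKO and 144 and 150 CPM in WT. The groups were far apart beside the spread within them, and the gene rose by 0.52 (SE 0.0953, adjusted p = 0.000439). It shares 194 bases with Rfc4 on the other strand, which had 31 to 83 counts per library. The main helicase gene Eif4a1 had 472 and 476 against 380 and 410 CPM and rose by 0.26 (SE 0.0919, adjusted p = 0.0385). Its call ended without WT replicate 1 (0.20, adjusted p = 0.426), without WT replicate 2 (0.31, adjusted p = 0.178) and in DESeq2 (0.25, adjusted p = 0.0571). Per length, Eif4a1 exceeded Eif4a2 by 2.77 to 2.78 times in libraries labelled cKO and by 3.26 to 3.37 times in WT. Eif4a3, the helicase of the exon junction complex, was at 0.03 (95% interval -0.20 to 0.26).

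Eif4g2, a relative of the eIF4G scaffold that lacks the eIF4E-binding part, was the one that fell, by 0.33 (SE 0.0915, adjusted p = 0.0105). It had 1369 and 1351 CPM in libraries labelled cKO and 1656 and 1768 CPM in WT, with no overlap. Its call ended with upper-quartile factors (-0.23, adjusted p = 0.0735), without WT replicate 1 (-0.38, adjusted p = 0.0743) and without WT replicate 2 (-0.29, adjusted p = 0.193). The scaffold Eif4g1 was at 0.01 (95% interval -0.19 to 0.21) and Eif4g3 at -0.27 (adjusted p = 0.0916). Without Nat10 cKO replicate 1 Eif4g3 was called lower (-0.31, adjusted p = 0.0180). The cap-binding protein gene Eif4e had 123 and 124 against 125 and 132 CPM, a log2 fold change of -0.06 with a 95% interval of -0.26 to 0.15. Its relatives Eif4e2 (-0.16) and Eif4e3 (-0.24) were not called. Eif4e3 turned on the library kept, at -0.52 without Nat10 cKO replicate 1 (adjusted p = 0.00400) and 0.0020 without Nat10 cKO replicate 2 (adjusted p = 0.994). The genes of the proteins that hold eIF4E away from eIF4G or shuttle it gave 0 calls of 3 in edgeR and DESeq2, and 0 at an unadjusted p under 0.05. Over all tested genes edgeR called 28.8% and DESeq2 18.3%, so among 3 genes a count of 0 does not set this role apart. Eif4ebp1 had 96.8 and 122 against 87.4 and 98.1 CPM, groups that overlapped, and differed by 0.24 (SE 0.117, adjusted p = 0.137). It was called higher without Nat10 cKO replicate 1 (0.38, adjusted p = 0.00225). Eif4ebp2 had 99.7 and 94.5 against 85.2 and 85.1 CPM (0.19, adjusted p = 0.177), and Eif4enif1, which carries eIF4E into the nucleus, was at 0.18 (adjusted p = 0.330). With upper-quartile factors Eif4ebp1 (0.34) and Eif4ebp2 (0.29) were called, where 29.3% of all tested genes were.

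Eef1e1, grouped under elongation by its symbol, does not encode an elongation factor, and Eef1a2 was near the floor of counts. With both, 4 of 9 elongation genes rose and 1 (Eef1e1) fell (median 0.22), where 14.4% of all tested genes were called in each direction. Without WT replicate 1 only Eef1a2 and Eef1e1 kept a call in edgeR, and without WT replicate 2 no gene of this role did. The medians of the 9 genes were 0.115 and 0.289 there. Those fits leave 1 WT library, and they called fewer of all tested genes too. Eef1b2 had 427 and 475 CPM in libraries labelled cKO and 339 and 354 CPM in WT and rose by 0.38 (SE 0.0943, adjusted p = 0.00522). Eef1g, its partner in the exchange complex, had 539 and 553 against 444 and 458 CPM and rose by 0.28 (SE 0.0901, adjusted p = 0.0277). Eef2 had 2182 and 2052 against 1675 and 1848 CPM and rose by 0.27 (SE 0.0946, adjusted p = 0.0426). Both groups stayed apart for these 3 genes. Their calls ended without WT replicate 1, at 0.34, 0.25 and 0.19 (adjusted p = 0.129, 0.303 and 0.470), and without WT replicate 2, at 0.40, 0.29 and 0.33 (adjusted p = 0.0821, 0.211 and 0.152). Eef1a1 had 5405 and 5254 against 4271 and 4904 CPM, again with no overlap. Its log2 fold change of 0.22 was not called (SE 0.0996, adjusted p = 0.115), and it was called higher with upper-quartile factors (0.31), with library size only (0.28) and without the filter (0.22). Processed copies of Eef1a1 elsewhere in the genome could share its reads. Eef1d (0.11), Eif5a (-0.04) and Eif5a2 (-0.31) were not called.

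Eef1a2, the isoform known from muscle and neurons, was at the edge of detection. It had 15 and 22 counts in libraries labelled cKO and 3 and 2 in WT, a ratio of 6.43 over the summed counts (exact 95% interval 2.52 to 21.0, counting error only). In the fit it rose by 2.62 (SE 0.678, 95% interval 1.20 to 4.04, adjusted p = 0.00695). Its call ended without Nat10 cKO replicate 2 (2.48, adjusted p = 0.0644), without WT replicate 2 (2.17, adjusted p = 0.122) and in DESeq2 (2.63, adjusted p = 0.0788). The stromal markers described above were higher in the same libraries, and their part in this value was not tested. Eef1e1, which in spite of its symbol encodes a scaffold protein of the multi-tRNA synthetase complex, had 35.1 and 32.0 against 43.2 and 50.7 CPM and fell by 0.49 (SE 0.121, adjusted p = 0.00512). Without WT replicate 2 it was at -0.37 (adjusted p = 0.135). Eef2k, the kinase that phosphorylates eEF2 and so slows elongation, had 17.2 and 16.1 against 11.2 and 10.9 CPM and rose by 0.59 (SE 0.162, adjusted p = 0.00998). That call ended without WT replicate 2 (0.56, adjusted p = 0.0843) and in DESeq2 (0.58, adjusted p = 0.0943). Of the methyltransferase genes that the naming rule keeps, Eef2kmt was at -0.23 (adjusted p = 0.188) and Eef1aknmt at -0.23 (adjusted p = 0.426).

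**Figure D3:**
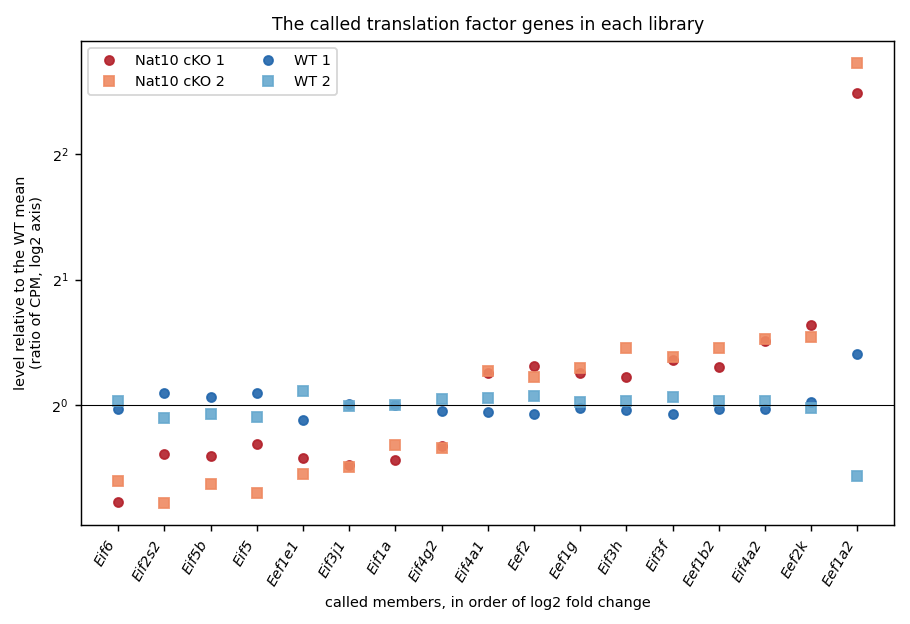
Level of each of the 17 called members (x axis) in each library as a ratio to the WT mean (y axis, log2 axis). Red and orange points are libraries labelled cKO and blue points are WT. The groups do not overlap for any of the 17, but these genes were called on the same libraries, so this adds no support. Over all tested genes 63.6% did not overlap. The libraries of a group lie apart in Eif5 and Eif2s2 and close together in Eif3j1 and Eif4a2.

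The members with a textbook TOP mRNA were Eef1a1, Eef1b2, Eef1d, Eef1g, Eef2, Eif3a, Eif3e, Eif3f, Eif3h and Eif4b. Of these 10, 5 rose and 0 fell in both edgeR and DESeq2, with 0 lower at an unadjusted p under 0.05 as well (median 0.24), where edgeR called 14.4% and DESeq2 8.10% of all tested genes higher. Those shares are not matched for level. The median WT level of the 10 was 333 CPM with SE from 0.0901 to 0.135, against 22.6 CPM and 0.0895 to 1.41 over all tested genes. Of the 48 other tested members 4 rose and 8 fell (8.33% and 16.7%, median -0.05), beside 14.4% of all tested genes in each direction. With upper-quartile factors the balance of these 48 turned, with 10 higher and 6 lower, and 7 of the TOP list were higher. The balance of all tested genes moved the same way, to 19.6% higher and 9.70% lower. DESeq2 called 1 of the 48 higher and 8 lower, beside 8.10% and 10.2% of all tested genes. The median of the others was positive with upper-quartile factors (0.044) and library size only (0.012). In 8 of the 10 libraries labelled cKO lay above both WT libraries (32.3% of all tested genes), and Eif3a and Eef1d overlapped. Without WT replicate 1 and without WT replicate 2 the list kept no call in edgeR, at medians of 0.19 and 0.30. Those fits leave 1 WT library, and they called fewer of all tested genes too. Without Nat10 cKO replicate 1 the median was 0.198, with Eif3a at -0.32. Eif3e, at 124 and 119 against 109 and 106 CPM (0.17, adjusted p = 0.212), and Eif4b, which stimulates the helicase, at 365 and 340 against 309 and 328 CPM (0.15, adjusted p = 0.269), were not called. The list was chosen with earlier results of these data known.

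The start sites are shown for TOP-list members and for called members that kept their call in every setting, since the tract is what sets a TOP mRNA apart. Each line holds 30 bases of RefSeq sequence on GRCm38.p6, 5′ to 3′ on the gene's strand, 10 before the annotated start and 20 from it. Capitals mark a C followed by at least 4 bases that are each C or T, searched on the gene's strand only. TOP-list members come first, then the others.
Eif3f: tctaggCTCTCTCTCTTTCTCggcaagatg
Eef1a1: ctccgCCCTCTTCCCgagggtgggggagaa
Eef2: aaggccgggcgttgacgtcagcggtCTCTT
Eif4b: tcccgtcggacgccgcgccaCCCCCTCgcg
Eef1b2: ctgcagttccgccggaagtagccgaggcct
Eif3a: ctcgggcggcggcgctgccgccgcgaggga
Eif2s2: aaggttggctttactgtacgcctgcgcttt
Eif5b: ctgggttcccacctggccggcggctctact
Eif3j1: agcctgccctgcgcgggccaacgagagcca
Eif4a2: gaaaccccgtaggagcagggcggccgagga

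Such a run was found in 4 of the 6 TOP-list windows and in 11759 of 32851 windows of the table (35.8%). The windows of Eif3f (chr7:108934405-108934434, plus strand), Eef1a1 (chr9:78481705-78481734, minus strand), Eef2 (chr10:81176621-81176650, plus strand) and Eif4b (chr15:102073763-102073792, plus strand) held one. In Eif3f the run was 15 bases long and began at base -4, and in Eef1a1 it was 10 bases long and began at base -5. Both spanned the annotated start. The run of Eef2 began at base 16 from the start and reached the end of the window, and that of Eif4b began at base 11. None of the 4 runs began at the annotated start, so the count is of windows with a run and not of TOP tracts. Eef1b2 and Eif3a had no such run in the window, nor had Eif2s2, Eif5b, Eif3j1 and Eif4a2. Over all tested members 19 of 60 windows held a run (31.7%), where a gene with several annotated starts counts more than once. Runs also stood in members off the TOP list that are not shown, such as Eif2b5 (14 bases) and Eif2s3x (12 bases). The annotated start need not be the start used in these cells. Eef1g, Eif3h, Eif3e, Eef1d and Eif6 are named only.

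The median length of merged exons differed between called members that rose and those that fell, a difference that was not tested. The 9 that rose had a median of 2891 bases of merged exons and the 8 that fell one of 6292.5 bases. The 41 uncalled members had a median of 3702 bases and ranged from 1125 to 11063. Over all tested genes the corresponding medians were 4290 bases for higher and 4851 bases for lower genes. The range was 1612 to 7408 bases among the members that rose and 2702 to 10166 among those that fell, so the ranges overlapped, with Eif6 the shortest of those that fell.

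Partners and regulators that the naming rule leaves out gave 3 higher and 6 lower genes among 42 tested of 44 (21.4% called, median -0.05, beside 28.8% and 0.0075 over all tested genes). In the control of eIF2 alpha, 3 of 6 genes fell and 0 rose, where 14.4% of all tested genes were called in each direction. Ppp1r15a, the stress-induced subunit that directs a phosphatase to eIF2 alpha, had 136 and 116 CPM in libraries labelled cKO and 266 and 284 CPM in WT and fell by 1.13 (SE 0.103, adjusted p = 1.70e-07). Its constitutive relative Ppp1r15b had 169 and 166 against 251 and 256 CPM and fell by 0.60 (SE 0.0938, adjusted p = 9.47e-05). Eif2ak2, the interferon-inducible kinase PKR that senses double-stranded RNA, had 90.5 and 73.0 against 161 and 151 CPM and fell by 0.93 (SE 0.112, adjusted p = 5.20e-06). The other eIF2 alpha kinases Eif2ak1 (-0.20), Eif2ak3 (0.15) and Eif2ak4 (0.21) were not called.

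Of 11 genes of mTORC1 and its outputs, Larp1 was called (9.09%, beside 28.8% of all tested genes). Larp1 encodes the protein that binds TOP tracts and represses those mRNAs, and it had 462 and 394 CPM against 677 and 636 CPM, a fall of 0.62 (SE 0.0988, adjusted p = 0.000111). Mtor had 19.1 and 16.2 against 14.8 and 12.5 CPM and was not called (0.37, adjusted p = 0.0976). Mknk2, a kinase of eIF4E, had 177 and 163 against 122 and 135 CPM and rose by 0.40 (SE 0.101, adjusted p = 0.00604), and the call ended without WT replicate 1 (0.32, adjusted p = 0.171) and without WT replicate 2 (0.47, adjusted p = 0.0522). Pdcd4, which blocks eIF4A, had 18.5 and 16.8 against 9.91 and 10.5 CPM and rose by 0.79 (SE 0.164, adjusted p = 0.00132). Paip2, which blocks the poly(A)-binding protein, had 53.6 and 53.5 against 39.4 and 37.4 CPM and rose by 0.48 (SE 0.110, adjusted p = 0.00302), and this call was lost without WT replicate 2 (0.43, adjusted p = 0.0804). Pabpc1, the poly(A)-binding protein gene, was at 0.24 (adjusted p = 0.109). Denr, which acts in ribosome recycling and reinitiation, had 75.9 and 66.1 against 121 and 103 CPM and fell by 0.66 (SE 0.113, adjusted p = 0.000225), whereas its partner Mcts1 was at 0.04 (adjusted p = 0.847). Hbs1l, a factor that rescues stalled ribosomes, fell by 0.34 (adjusted p = 0.0216), and its call ended without WT replicate 1 (-0.32, adjusted p = 0.175), without WT replicate 2 (-0.38, adjusted p = 0.109), in DESeq2 (-0.36, adjusted p = 0.0746), with upper-quartile factors (-0.25, adjusted p = 0.0925) and with library size only (-0.28, adjusted p = 0.0616).

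**Figure D4:**
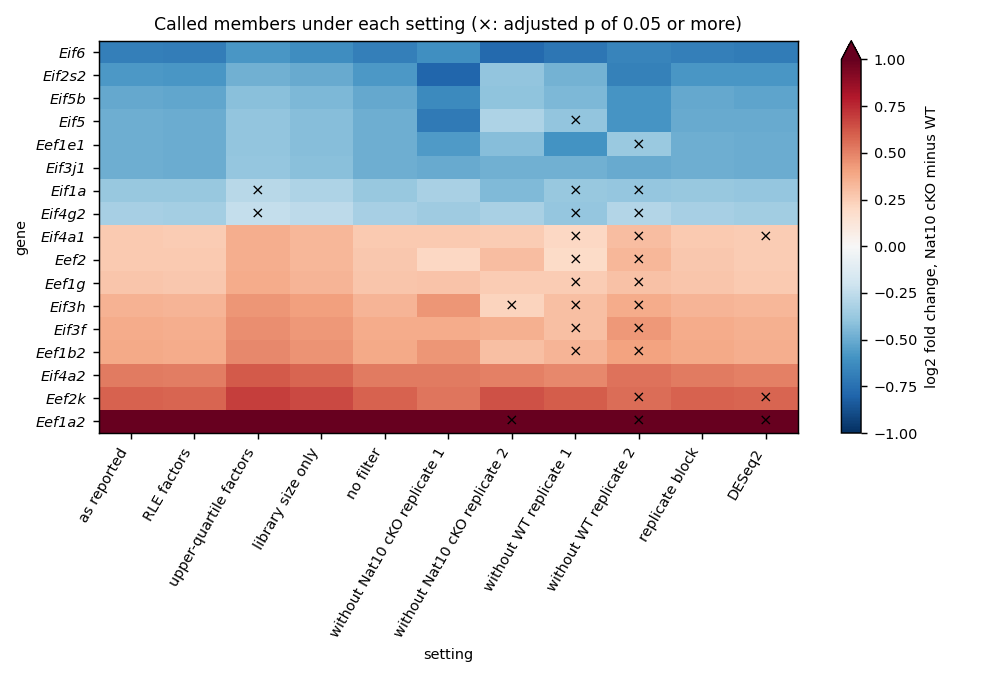
Log2 fold change (colour, libraries labelled cKO minus WT) of the 17 called members (y axis) as reported and under 10 other settings (x axis), where a cross marks an adjusted p of 0.05 or more and the colour stops at 1. Eif6, Eif2s2, Eif5b, Eif3j1 and Eif4a2 carry no cross, and most crosses lie in the columns that leave out a WT library.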

How the data were processed

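Raw counts were deposited by the authors in a single table, as whole numbers per gene with Ensembl identifiers and GRCm39 coordinates. The submitters' processing notes name fastp 0.20.0, STAR 2.7.9a and featureCounts 2.0 with mm39 (GRCm39). Neither annotation release nor strandedness was stated in any source used here. Per the labels, ribosomal RNA was depleted and an mRNA library kit was used.

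Genes were kept by filterByExpr with its defaults (11448 of 21834), scaled by TMM (factors 0.976 to 1.03) and tested two-sided by edgeR 4.0.16 (quasi-likelihood, R 4.3.3). The model held the group alone, and p-values were adjusted by Benjamini and Hochberg's method over every tested gene. The scripts were tested on simulated data. Alternatives were DESeq2 1.42.0, RLE or upper-quartile factors, library size only, no filter, each library left out and the replicate number as a block. Counts of 0 entered the fits unchanged, and the 3 counts named for a count of 0 are an upper bound only. Replicates differed by more than sampling noise, with a chi-square per gene of 6.16 (WT) and 11.2 (Nat10 cKO).

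The members, roles and lists were chosen with earlier results of these data known. Values per library are given for called members and for the member of smallest p in roles without a call. Also named are the extremes of each role in fold change, paralogs, the members with the highest level per length and called partner genes. Other genes, among them Eif2s1, Eif2s3x, Eif3k, Eif3g, Eif3a, Eif3e, Eif4b, Pabpc1 and Mtor, were named after their values were seen. RefSeq promoter entries were found for 47 members, and all 58 tested members had an exon length from GENCODE M21. Both are annotations of GRCm38.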

Additional observations from a re-analysis of the deposited data

How the results depend on the processing

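Eif6, Eif2s2, Eif5b, Eif3j1 and Eif4a2 kept direction and call under all 10 alternatives; the other 12 of 17 called members lost the call under at least 1 and kept their direction. Of the uncalled members, 15 were called under at least 1 alternative and 13 changed sign. Upper-quartile factors moved the median of all tested genes from 0.0075 to 0.105 and that of the members to 0.12, with 17 members and 5 partner genes called higher; library size only moved the members' median to 0.085. With single libraries left out, 1 to 13 members were higher and 5 to 11 lower, 1 to 5 partner genes were higher and 5 to 8 lower, and the members' median lay between -0.0085 (without WT replicate 2) and 0.034. The replicate number pairs no libraries by the labels. Deviations of the same-numbered libraries correlated at 0.13 over all tested genes and 0.56 over the 58 members, and with the replicate block 14 members and 5 partner genes were higher and 12 members lower, where 37.6% of all genes were called; the added calls were Eef1a1, Eif1b, Eif3i, Eif3k and Eif4ebp1 (higher) and Eif2b4, Eif3g, Eif4g3 and Eif4h (lower). The cause of these shifts was not tested.

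Sign changes concerned uncalled members. With upper-quartile factors Eif2b5 was at 0.027, Eif2b2 at 0.048, Eif3a at 0.088, Eif3b at 0.035, Eif3d at 0.011, Eif4e at 0.040 and Eif5a at 0.056. With library size only Eif2b2 was at 0.015, Eif3a at 0.062, Eif3b at 0.0054, Eif4e at 0.0091 and Eif5a at 0.024. Eif1ax was at -0.0041 with RLE factors and -0.011 in DESeq2, and Eif4g1 at -0.0012 in DESeq2. With a library left out, Eif1ax lay between -0.11 and 0.092, Eif4g1 between -0.096 and 0.10, Eif3a between -0.32 and 0.24, Eif5a between -0.15 and 0.046, Eif2b3 between -0.013 and 0.22, Eif4a3 between -0.058 and 0.11, Eif4e3 between -0.52 and 0.0020 and Eif1 between -0.035 and 0.070.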
